A study of Mus musculus with 4 samples.

Results

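The plasma cell program and BAFF/APRIL genes are 10 genes of antibody-secreting cells and of the cytokine system that keeps them alive: Prdm1, Irf4, Pou2af1, Sdc1, Tnfrsf17, Mzb1, Derl3, Tnfsf13b, Tnfsf13 and Tnfrsf13c. They were found on the arrays by gene name, among all non-control probes, with 2010001M09Rik read as the older name of Mzb1. The array files carried probes under 34608 gene names, and 9 of the 10 names were among them, with 10 probes in all. Tnfsf13 had no probe under its own name. A value entered the tests for 8 genes, because the Tnfrsf17 probe was not well above background on any array.

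RNA of whole kidney was hybridized to 1-colour Agilent arrays from female BALB/C mice, 6 weeks old per the labels, in a model of membranous nephropathy (MN), in which immune complexes of antibody with its antigen collect under the podocytes of the glomerulus. All animals of both groups were immunized with 0.2 mg of cationic bovine serum albumin (cBSA) in complete Freund's adjuvant. Starting 2 weeks later, the MN group was given intravenous cBSA for 6 weeks, 3 times weekly, at a dose of 13 mg/kg. The control group was given vehicle alone, which the labels call saline in one place and PBS in another. The controls had thus also met the antigen and the adjuvant, and the comparison concerns the repeated intravenous antigen. There were 2 control and 2 MN samples with 1 array each, and nothing in the labels says that each came from a separate animal, so that the p-values below measure only the spread between these samples.

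A plasma cell arises when an activated B cell switches on PRDM1, IRF4 and XBP1, shuts down the B cell factor PAX5 and enlarges its endoplasmic reticulum (ER) to fold and export antibody. Long-lived plasma cells depend on the TNF-family ligands BAFF (Tnfsf13b) and APRIL (Tnfsf13), made largely by myeloid and stromal cells. Their receptors are BAFF-R (Tnfrsf13c), carried by B cells, BCMA (Tnfrsf17), carried by plasma cells, and TACI (Tnfrsf13b), carried by both. In inflamed kidneys, plasma cells can lodge in the interstitium and around vessels and secrete antibody there.

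The sequences most useful for reading the results belong to Derl3, the member with the largest difference between the groups. Derl3 encodes a derlin, a membrane protein of the ER that helps to retrieve misfolded proteins for degradation. The 250 bases before its start in RefSeq (GRCm38.p6, plus strand, chr10:75893148-75893397) are shown with the XBP1 core and the full ER stress response element in capitals.
Derl3 promoter: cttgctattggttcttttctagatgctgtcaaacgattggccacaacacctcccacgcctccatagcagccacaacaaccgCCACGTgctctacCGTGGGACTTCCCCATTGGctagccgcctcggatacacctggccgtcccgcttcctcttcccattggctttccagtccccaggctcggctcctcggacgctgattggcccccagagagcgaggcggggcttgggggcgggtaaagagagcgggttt
The first capitals, from base -169 to base -164 counted from the start, are the XBP1 core ACGTGG read on the opposite strand. The second, from -156 to -138, are the ER stress response element, CCAAT and CCACG with 9 bases between them, also on the opposite strand, which NF-Y is known to bind at CCAAT and ATF6 or XBP1 at CCACG. Both strands were searched. The full ER stress response element was in 0.113% of 32851 mouse promoters of this length, the XBP1 core in 6.91% and CCACG alone in 28.3%. CCACG also lay from -198 to -194 in Derl3, where it is left in lower case. On one strand or the other it was in the promoters of Pou2af1, Prdm1, Tnfsf13, Sdc1 and Irf4 too. A further pattern of the NF-kB type, GGGA and CCC with 4 bases between them (5.06% of promoters), also matched Derl3, from -153 to -143, inside the same element.

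No other member's promoter held the full element. RefSeq promoters were found for 9 of the 10 members, all except Mzb1. The XBP1 core was also in the promoter of Pou2af1, from -59 to -54. The tandem pattern of interferon response elements, GAAA and GAAA with 2 bases between them, present in 2.98% of promoters, matched Tnfsf13b from -16 to -7 and Tnfrsf17 from -101 to -92. The octamer ATGCAAAT (1.6% of promoters), bound by the OCT factors that Pou2af1 assists, matched no member, nor did the ETS-IRF composite, GGAA and GAAA with 2 bases between them (2.3%), or the PRDM1-type core, GAAAG and GAAAG with 1 base between them (0.393%). A match gives the letters of the window and does not show that a factor bound there.

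The element of Derl3 is set beside those of ER chaperone and quality control genes, because these genes are compared with Derl3 below. Ero1b and Alg12, ER genes not lined up here, also carry it, and their values are given below. The sites are written in the direction of the element with its fixed ends in capitals.
Derl3: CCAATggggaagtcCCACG
Hspa5: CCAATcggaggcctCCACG
Creld2: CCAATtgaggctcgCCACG
Calr: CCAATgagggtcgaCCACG
Hsp90b1, first site: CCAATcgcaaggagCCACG
Hsp90b1, second site: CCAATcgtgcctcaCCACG
Syvn1: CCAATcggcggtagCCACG
Pdia6: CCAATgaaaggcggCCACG
Dnajc3: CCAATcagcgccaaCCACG
Canx: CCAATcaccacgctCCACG

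The probes of the BAFF and APRIL receptors are shown because the probe decides what could be read of these genes. The Tnfrsf13c probe that gave a signal starts at base 91 of its transcript and the Tnfrsf13b probe with the highest mean at base 408 (positions on mm9, per the files).
Tnfrsf13c, chr15:82054616-82054675: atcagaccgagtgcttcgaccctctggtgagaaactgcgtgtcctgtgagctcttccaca
Tnfrsf13b, chr11:60960405-60960464: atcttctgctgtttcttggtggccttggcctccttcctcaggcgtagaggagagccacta
The second Tnfrsf13c probe starts at base 1817 of the same transcript and was not well above background on any array.

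Each array held 62976 spots, of which 59305 were not controls, and no spot was saturated. The share of non-control spots well above background was 65.9% and 79.5% in control and 64.0% and 63.1% in MN. Slide 1 carried replicate 1 of both groups and slide 2 carried replicate 2. On MN array 2 the scanner software reported its negative controls outside its accepted range, which it did on no other array. Precision is limited by the number of arrays. All 15 kidney epithelium markers, among them Slc34a1, Umod and Nphs1, were well above background on the 4 arrays. Over 25285 genes tested with limma and Benjamini-Hochberg adjustment, 5 passed the adjusted threshold of 0.05 as higher in MN (0.0198%) and 0 as lower (0%), while at an unadjusted p under 0.05 there were 896 higher and 884 lower. The 5 were Slpi, Cfd, Adipoq, Mup18 and 1 transcript described in the files as an antibody kappa variable segment, and none of them is a plasma cell or BAFF/APRIL gene.

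Derl3 and Mzb1, the ER proteins of the plasma cell program, had higher values in MN kidney, Sdc1 had lower values, Tnfsf13b was slightly higher, and the transcription factors and Tnfrsf13c differed in opposite directions on the slides. None of the 8 measured genes passed the adjusted threshold in limma, where the smallest adjusted p among them was 0.274. At an unadjusted p under 0.05, 1 of the 8 was higher in MN, against 3.54% of all genes, and 0 were lower, against 3.5%. Both MN arrays lay above both control arrays for Derl3, Mzb1 and Tnfsf13b, 3 of the 8, against 13.2% of all genes. They lay below for Sdc1, 1 of the 8, against 19.8%. For the other 4 the groups overlapped. The median log2 difference of the 8 was 0.02, and that of all genes was -0.05. Most genes were negative: ranked by difference from the highest, S1pr1, at 0.0001, was at 9749 of the 25285. Counts by sign below are to be read against that. With the slide as a block, limma still called 0 of the 8 and 0 genes in all (0% in each direction; the smallest adjusted p over all genes was 0.0566), and Derl3 and Mzb1 were higher and Sdc1 lower at an unadjusted p under 0.05, against 6.28% of all genes higher and 9.06% lower. In whole-kidney RNA, a change in the number of cells of a type and a change in the RNA of each cell cannot be told apart.

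**Figure D1:**
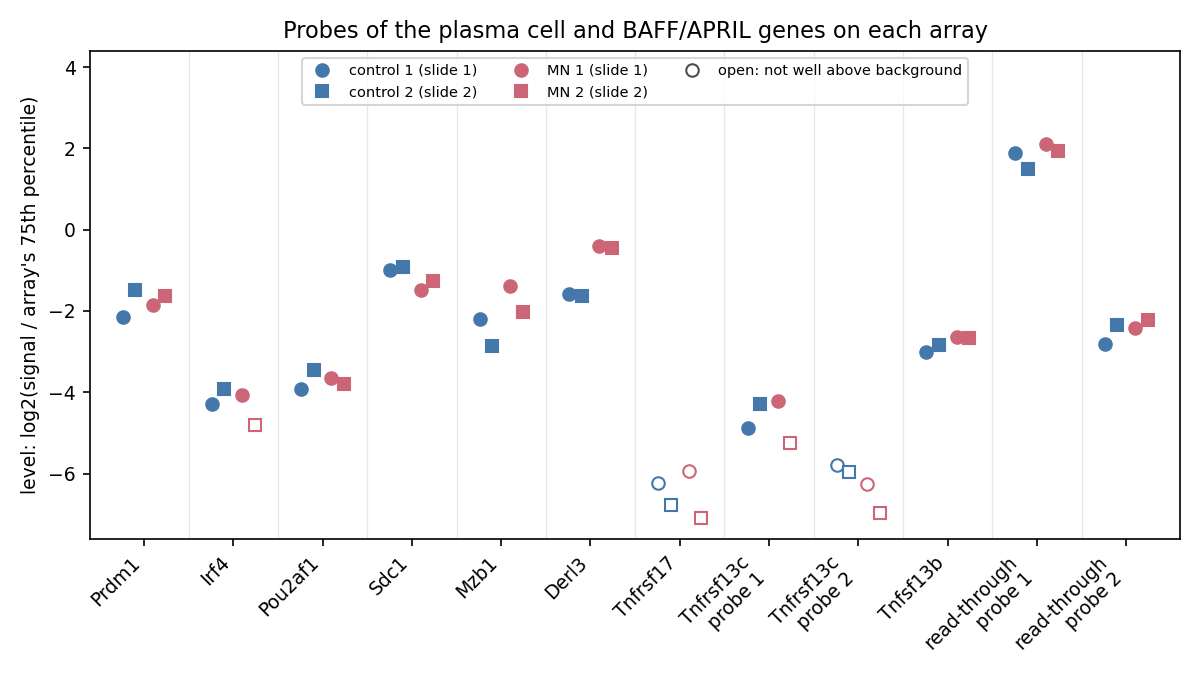
Level of each probe on each array, as log2 of the signal over that array's 75th percentile (y axis), for the plasma cell and BAFF/APRIL genes (x axis); circles are slide 1, squares slide 2, blue control, red MN, and open symbols are probes not well above background on that array. Both MN arrays stand above both control arrays for Derl3 (-0.39 and -0.45 against -1.58 and -1.64) and Mzb1, and below them for Sdc1; the probes named read-through list the Tnfsf13 transcript and cannot be assigned to Tnfsf13 alone.

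Among the transcription factors, no difference exceeded the spread between arrays. Levels are given as log2 of the processed signal relative to the 75th percentile of the array, so that 0 is the 75th percentile and each step of 1 is a doubling. Prdm1, which encodes BLIMP1, the repressor that ends the B cell program, was at -2.14 and -1.48 on control arrays 1 and 2 and at -1.84 and -1.63 on MN arrays 1 and 2. Both MN values lay between the controls. The difference, MN minus control, was 0.08 ± 0.28 (SE) with a 95% interval from -0.69 to 0.85 (limma, adjusted p = 0.9999). It was 0.30 on slide 1 and -0.14 on slide 2.

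Irf4, a factor needed both for germinal centre B cells and, at higher dose, for plasma cells, gave levels of -4.29 and -3.92 in control and -4.07 and -4.81 in MN. The lowest value, on MN array 2, was not well above background, and the groups overlapped. The difference was -0.33 ± 0.32 (95% interval -1.23 to 0.56), and it was 0.22 on slide 1 and -0.89 on slide 2. Without MN array 2 it was 0.04. Pou2af1, the OCT coactivator of antibody gene promoters, was at -3.93 and -3.45 in control and -3.65 and -3.80 in MN, with MN inside the range of control. Its difference was -0.03 ± 0.22 (95% interval -0.65 to 0.58), with 0.28 on slide 1 and -0.35 on slide 2. The signs of Prdm1, Irf4 and Pou2af1 turned under some of the other settings given in the closing section. The processed signals of Irf4 were low on all arrays, at 37.8, 54.2, 45.8 and 43.0, and those of Pou2af1 were 48.3, 74.7, 61.1 and 86.3. The Prdm1 probe lies on mm9 at chr10:44157089-44157148, the Irf4 probe at chr13:30858532-30858591 and the Pou2af1 probe at chr9:51048121-51048180.

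Sdc1 encodes syndecan-1 (CD138), the heparan sulphate proteoglycan used to sort plasma cells, and it is also carried by epithelia, the kidney tubule included. Its levels were -0.98 and -0.92 in control and -1.48 and -1.26 in MN. Both MN arrays were below both controls, opposite to Derl3 and Mzb1. The difference was -0.42 ± 0.15 (95% interval -0.85 to 0.01; limma, unadjusted p = 0.0522, adjusted p = 0.720), which is 0.747 times the control level. It was -0.50 on slide 1 and -0.35 on slide 2, and a block for the slide gave an unadjusted p of 0.024 and an adjusted p of 0.255 in limma. The probe lies on mm9 at chr12:8799383-8799442.

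Tnfrsf17, the BCMA receptor of plasma cells, gave processed signals of 9.77 and 7.48 in control and 12.4 and 8.86 in MN. None of the 4 was well above background, so the arrays give no difference for this gene. With no filter on dim probes its fitted difference was -0.01 (limma, adjusted p = 0.9999).

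Mzb1, an ER protein of B and plasma cells that assists the assembly of IgM and integrin folding, was measured with 10 spots on each array. The median spot signal was 160 on control array 1 and 114 on control array 2, and 294 on MN array 1 and 290 on MN array 2. Scaled to each array, the spots ran from -2.31 to -2.07 on control array 1 and from -3.05 to -2.72 on control array 2, and those used ran from -1.48 to -1.24 on MN array 1 and from -2.21 to -1.82 on MN array 2. The spots of MN array 1 lay above those of both controls, while the lowest spots of MN array 2 reached into the range of control array 1. The SD between spots of an array was 0.085, 0.10, 0.081 and 0.11 on the log2 scale, while the arrays of a group lay 0.65 apart in control and 0.64 apart in MN. In both groups the array of slide 2 was the lower one.

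After scaling, the level of Mzb1 was -2.20 and -2.86 in control and -1.39 and -2.02 in MN. The array means of the groups did not overlap. The difference was 0.82 ± 0.35 (1.77-fold; 95% interval -0.15 to 1.79), and it missed the threshold (limma, unadjusted p = 0.0779, adjusted p = 0.795). Within the slides it was 0.81 and 0.83. A block for the slide gave an SE of 0.096 in place of 0.35, an unadjusted p of 0.00251 and an adjusted p of 0.172 in limma. That fit leaves 1 residual df, and Derl3 and Derl1 had the same SE of 0.096 in it. The SE thus leans on the variance that limma shares over genes and is no precision measured for Mzb1 alone. With normexp background correction the difference was 0.56.

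**Figure D2:**
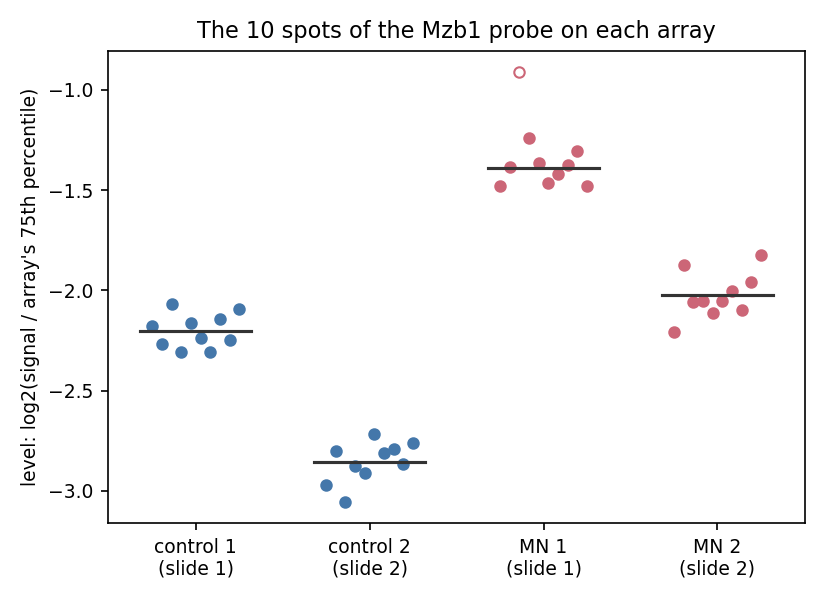
Level of each of the 10 spots of the Mzb1 probe on each array (y axis, log2 of the signal over the array's 75th percentile; x axis, the arrays); lines are the mean of the used spots and the open point is a spot left out as an outlier. The spots of an array lie close together, and both groups are lower on slide 2, by 0.65 in control and 0.64 in MN.

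Derl3 gave processed signals of 247 and 263 in control and 583 and 883 in MN. Relative to the 75th percentile of each array these were 33.5% and 32.1% in control and 76.1% and 73.4% in MN. The replicates lay 0.059 apart in control and 0.052 apart in MN on the log2 scale, and the groups were far from overlapping. In levels the values were -1.58 and -1.64 against -0.39 and -0.45, a difference of 1.19 ± 0.13 (2.28-fold; 95% interval 0.82 to 1.56). The unadjusted p in limma was 0.000899, rank 83 of the 25285 genes, and the adjusted p was 0.274. The slides gave 1.19 each. Derl3 was 1 of 8 measured members that were 2-fold or more higher in MN, against 1.07% of all genes, and 0 members were 2-fold or more lower, against 1.54%. The adjusted p with a slide block was 0.162 in limma, and over the alternatives tried the difference ran from 1.02 to 1.22. The probe lies on mm9 at chr10:75358503-75358562.

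**Figure D3:**
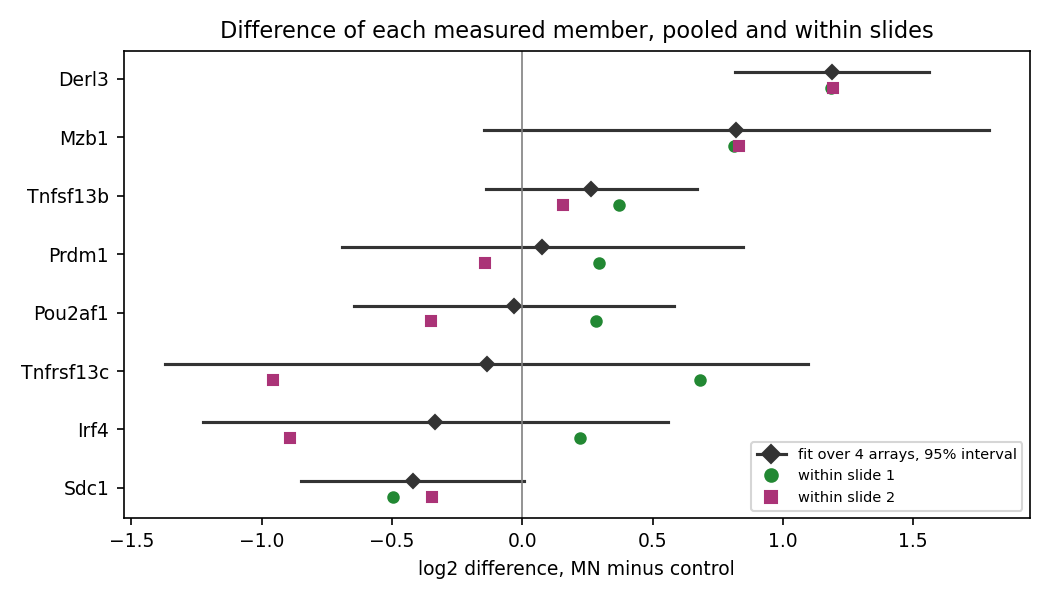
Difference between MN and control (x axis, log2) for the 8 measured genes (y axis); diamonds with bars are the fit over the 4 arrays with its 95% interval, green circles the difference within slide 1 and purple squares that within slide 2. The interval of Derl3 (0.82 to 1.56) is the only one that leaves out 0, and Prdm1, Pou2af1, Tnfrsf13c and Irf4 lie on opposite sides of 0 on the slides.

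The other derlins had values close to equal in the groups. Derl1 differed by -0.03 ± 0.13 and Derl2 by 0.00 ± 0.13, and their other probes gave 0.02 for Derl1 and 0.14 and 0.02 for Derl2. The list of 35 other genes of the secretory pathway and ER quality control, all measured, was 28 positive and 7 negative, with a median of 0.06. In limma 0 passed the adjusted threshold. At an unadjusted p under 0.05, 4 were higher, against 3.54% of all genes, and 0 were lower, against 3.5%. Both MN arrays were above both controls for 13, against 13.2% of all genes, and below for 1, against 19.8%. The 4 were Creld2 (0.66 ± 0.24), an ER factor that aids folding, Sdf2l1 (0.64 ± 0.14), a partner of the chaperone BiP, Hspa5 (0.52 ± 0.16), which encodes BiP itself, and Txndc11 (0.45 ± 0.15), an ER thioredoxin-like protein. A second, dimmer probe of Txndc11 gave -0.62.

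The full ER stress response element shown for Derl3 was in the promoters of 35 genes, Derl3 included, of which 21 were measured. Apart from Derl3, these genes were taken for the element and not for their values. Derl3 is included in the counts below, but it was shown for its difference, so its own value is no evidence in them. The 8 of them that are also in the secretory pathway list differed by 0.66 for Creld2, 0.52 for Hspa5, 0.31 for Syvn1, an ER ubiquitin ligase, 0.28 for the calcium-binding chaperone Calr, 0.27 for the chaperone Hsp90b1, 0.24 for the disulphide isomerase Pdia6, 0.06 for the co-chaperone Dnajc3 and 0.05 for the lectin chaperone Canx. Ero1b, an ER oxidoreductase outside that list, carried the element too and differed by -0.18 ± 0.14, with both MN arrays below both controls. Among all 21 genes 13 were positive, the median was 0.06, and in limma 0 passed the adjusted threshold. At an unadjusted p under 0.05, 3 (Derl3, Creld2 and Hspa5) had a higher value and 1 (Xlr3b, -1.27 ± 0.16) a lower one. Over all genes these shares were 3.54% and 3.5%. Creld2 shares its element with its neighbour Alg12, an enzyme of N-glycan assembly, which differed by 0.04 ± 0.16. Xbp1, the factor that drives the secretory expansion of plasma cells, was at 5.11 and 5.03 in control and 5.35 and 5.14 in MN. Its MN values were both above the controls, by 0.18 ± 0.15, and it did not pass the test (limma, adjusted p = 0.9999).

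Among the ligands, Tnfsf13b, which encodes BAFF, gave processed signals of 91.8 and 115 in control and 124 and 190 in MN. Its levels were -3.00 and -2.83 in control and -2.63 and -2.67 in MN, so that both MN arrays lay above the controls by a small distance. The difference was 0.27 ± 0.15 (1.20-fold; 95% interval -0.14 to 0.67) with an adjusted p of 0.903 in limma. It was 0.37 on slide 1 and 0.16 on slide 2, and 0.13 with normexp background correction. The probe lies on mm9 at chr8:10035561-10035620.

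Tnfsf13, which encodes APRIL, could not be read apart from a read-through transcript that it shares with its neighbour Tnfsf12. The arrays carried 2 probes, at chr11:69496733-69496792 and chr11:69496079-69496138 on mm9, that list the Tnfsf13 transcript together with the read-through transcript that joins Tnfsf12 to Tnfsf13. The first gave levels of 1.89 and 1.5 in control and 2.11 and 1.92 in MN. The second gave -2.80 and -2.35 in control and -2.41 and -2.22 in MN. The groups did not overlap for the first and overlapped for the second. Their differences were 0.32 and 0.26, or 0.30 and 0.09 with normexp background correction. Tnfsf12, the neighbouring gene that encodes TWEAK, differed by -0.12, and by 0.05 with its second probe.

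Among the receptors, Tnfrsf13c, which encodes BAFF-R, was near background. Its probe gave processed signals of 24.9 and 42.0 in control and 41.6 and 31.8 in MN, and on MN array 2 it was not well above background. The levels were -4.89 and -4.28 against -4.20 and -5.24, with both extremes in MN. The difference was -0.14 ± 0.44 (95% interval -1.37 to 1.1), and it was 0.68 on slide 1 and -0.96 on slide 2. Its sign turned with quantile normalization (0.02). Tnfrsf13b, which encodes TACI, had 3 probes, all well above background on the 4 arrays. The one with the highest mean was at -2.11 and -1.57 in control and -2.18 and -1.90 in MN, a difference of -0.20 ± 0.25 with overlapping groups. The other probes gave -0.32 and -0.01.

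Downstream of the receptors, the list of other BAFF and APRIL pathway genes held 26 genes, of which 23 were measured. Of these 9 were positive and 14 negative, with a median of -0.04, close to that of all genes. In limma 0 passed the adjusted threshold, and at an unadjusted p under 0.05 there were 0 higher and 2 lower. Over all genes 3.54% were higher and 3.5% lower. The 2 were Relb (-0.47 ± 0.15), the NF-kB subunit of the noncanonical pathway, whose other probes gave -0.33 and -0.10, and Bcl2l11 (-0.71 ± 0.22), the cell death factor BIM that BAFF signalling is known to restrain. Bcl2l11 was near background, with -0.30 under normexp background correction, and was named after its values were seen. Birc2, an inhibitor of apoptosis that helps to degrade the NF-kB inducing kinase, differed by 0.21 ± 0.14, and Chuk, the kinase IKK alpha, by -0.23 ± 0.16.

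The list of other plasma cell transcription and surface genes, 21 of 25 measured, had 11 positive and 10 negative and a median of 0.01. Over all genes negative values were the more frequent. In limma 0 passed the adjusted threshold, and at an unadjusted p under 0.05 there were 0 higher and 3 lower, against 3.54% and 3.5% of all genes. The 3 were homing and surface genes: Cxcr4 (-0.61 ± 0.15), the CXCL12 receptor that holds plasma cells in bone marrow, Ccr10 (-0.48 ± 0.14), a receptor for CCL28, and Ly6k (-0.76 ± 0.18), a surface protein. Bhlha15, which encodes MIST1, a factor of secretory cells, differed by 0.40 ± 0.20. With normexp background correction Bhlha15 was at 0.12, Ccr10 at -0.19 and Cxcr4 at -0.39. Among the B cell genes that plasma cells repress, 20 of 21 were measured, with 8 positive, 12 negative and a median of -0.08. Fcmr (-0.79 ± 0.24), the IgM receptor, Id3 (-0.63 ± 0.14), an inhibitor of E proteins, and Ms4a1 (-0.60 ± 0.15), which encodes CD20, were lower at an unadjusted p under 0.05 in limma. These 3 stand against 3.5% of all genes. Of the list 0 were higher, against 3.54%, and 0 passed the adjusted threshold. Pax5, the factor of B cell identity, differed by -0.27 ± 0.24, with overlapping groups. Ciita, the activator of MHC class II genes, differed by 0.75 ± 0.30, or 0.33 with normexp background correction.

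Among the antibody transcripts, the product of plasma cells, Jchain, Igkc and Ighg1 had much larger differences than Derl3 and Mzb1, and the others did not. Of the 12 listed constant regions and J chain, 8 were measured, 7 were positive, and the median difference was 1.17. In limma 0 passed the adjusted threshold and 6 were higher at an unadjusted p under 0.05, against 3.54% of all genes. Ighg1 is 1 of the 6, and its probe passed the filter through the MN arrays alone. Jchain, which links IgA and IgM into polymers, was at -2.36 and -2.31 in control and 0.78 and 1.0 in MN. The groups were far apart, by 3.23 ± 0.15 (limma, adjusted p = 0.066). Igkc, the constant region of the kappa light chain, was at 0.10 and -0.41 in control and 3.97 and 4.01 in MN, a difference of 4.14 ± 0.22 (limma, adjusted p = 0.071). The chosen Ighg1 probe, for the IgG1 heavy chain, stayed within background in both controls by the scanner's call. No test result is therefore given for it. MN was 352-fold higher when control was set at its lowest signals well above background, or at the probe's own if higher (fitted group means -6.42 and 2.76). On control array 2 the probe's own level, -5.98, lay above that lowest signal, -6.04, and was still not called. The 352-fold value is therefore no strict lower bound. With normexp background correction the difference of this probe was 6.12, and a second Ighg1 probe, well above background on control array 2, gave 5.15 (35.5-fold), or 2.63 with normexp. Ighg2b differed by 1.23 ± 0.15 (0.44 with normexp background correction) and Iglc2 by 1.11 ± 0.15. Igha, the IgA heavy chain, differed by 0.84 ± 0.13, Ighm, the IgM heavy chain, by 0.04 ± 0.16 and Ighg2c, an IgG2 heavy chain, by -0.14 ± 0.18. Ighg2c was near background, at -4.66 and -5.00 in MN, and was well above it on only 1 of the 2 MN arrays. Derl3 and Mzb1, at 1.19 and 0.82, lay below Jchain and Igkc and near Ighg2b, Iglc2 and Igha.

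**Figure D4:**
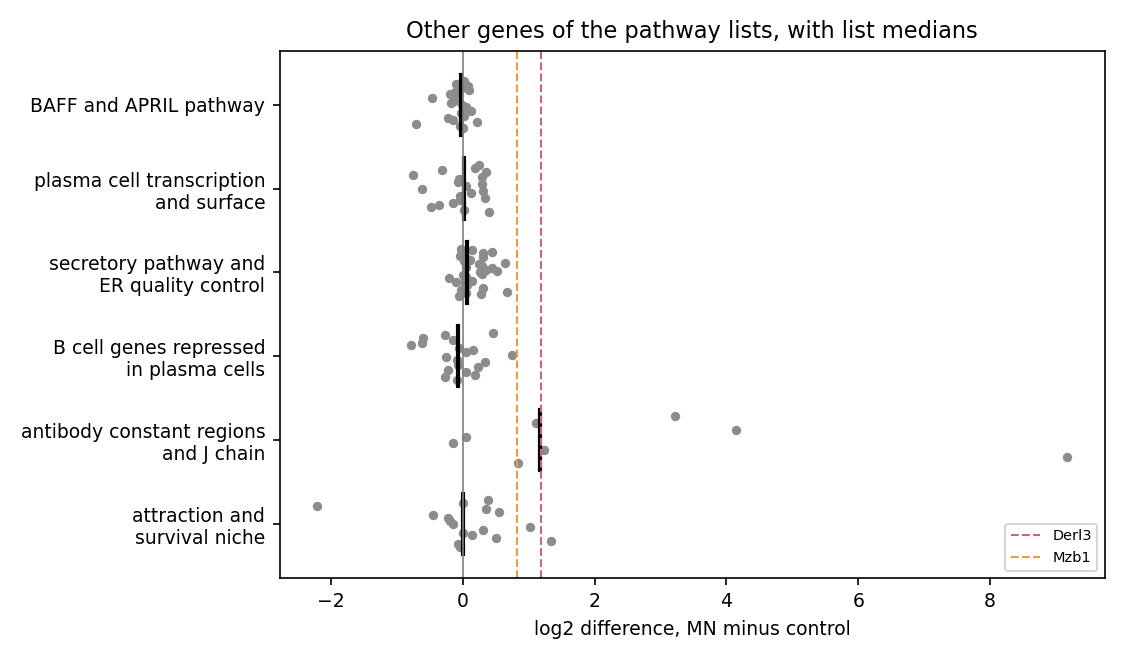
Difference between MN and control (x axis, log2) for each measured gene of the pathway lists (grey points; the members are left out), with the list median as a black bar and the differences of Derl3 (1.19) and Mzb1 (0.82) as dashed lines. The antibody constant regions run from -0.14 to a fitted 9.17 for Ighg1, which was not well above background in control, with a median of 1.17, and the medians of the other lists lie between -0.08 and 0.06.

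For the genes that attract plasma cells or support their survival, 17 of 21 were measured, 10 were positive and 7 negative, and the median was 0.00. In limma 0 passed the adjusted threshold, while at an unadjusted p under 0.05 there were 4 higher and 0 lower, against 3.54% and 3.5% of all genes. Ccl28, an epithelial chemokine for IgA plasma cells, was at -2.19 and -2.25 in control and -0.87 and -0.88 in MN, with no overlap and a difference of 1.34 ± 0.13. Its receptor Ccr10 had the lower values given above. Cxcl13, the B cell chemokine, differed by 1.01 ± 0.18, or 0.35 with normexp background correction. Il6ra, the IL-6 receptor, differed by 0.55 ± 0.18 and Cd80, a ligand of CD28 named here after its values were seen, by 0.51 ± 0.17 (0.32 with normexp). Itgal, an integrin chain, had a large negative value of -2.21 ± 1.52 that rested on control array 2: within slide 1 it was -0.03, and its other probes gave 0.02 and -0.18.

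Markers of other cell types were read from the same arrays, as summed linear levels in which 1 is the 75th percentile of an array. The 13 measured macrophage and dendritic cell markers, cells that make BAFF and APRIL, were 10 positive and 3 negative, with sums of 59.3 and 59.9 in control and 60.8 and 69.4 in MN. That separation rested on Itgam, whose chosen probe gave 1.13 and whose other probes gave -0.21 and -0.19. Without Itgam the sums overlapped, at 57.4 and 56.2 against 56.3 and 61.5. The 8 measured neutrophil markers were 7 positive and 1 negative, with sums of 45.1 and 57.6 against 63.8 and 70.1. Csf3r made up 90.4% to 92.6% of these sums, and without it they were 3.36 and 4.69 against 4.74 and 6.72. In limma 3 neutrophil markers (S100a8, S100a9 and Ltf) were higher at an unadjusted p under 0.05, against 3.54% of all genes. At that threshold 0 were lower, against 3.5%, and 0 passed the adjusted threshold. The part of these cells in the BAFF value was not tested.

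The 8 measured B cell markers were 2 positive and 6 negative, with overlapping sums of 2.88 and 3.34 against 2.82 and 3.5. Without Cd22, the largest of them, the sums were lower in MN, at 1.65 on both arrays against 1.85 and 1.82. The 11 measured T cell markers were 1 positive and 10 negative, with overlapping sums of 5.61 and 8.98 against 4.93 and 8.5.

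The 15 kidney epithelium markers had overlapping sums of 885 and 1111 in control and 951 and 1099 in MN, beside the lower Sdc1. Of the 11 measured adipose markers, 7 were positive and 6 were higher at an unadjusted p under 0.05 in limma, against 3.54% of all genes. Adipoq, Cfd and Retn, among the 6, passed the filter through the MN arrays alone. Their tests therefore rest on control values at or near background. Adipoq and Cfd passed the adjusted threshold, which 0 genes did under the filter on all 4 arrays. Cfd, well above background on 1 control array, differed by 6.93 and Cidec by 2.59 (5.08 and 1.71 with normexp). Adipoq and Retn were well above background on both MN arrays and on neither control array. The adipose sums were 21.7 and 19.4 against 24.7 and 24.4, of which Fabp4 made up 69.0% to 91.4%, and without Fabp4 they were 1.87 and 1.82 against 6.70 and 7.56. The 7 measured erythroid markers were 5 positive and 2 negative, with a median of 0.44 and sums of 301 and 340 against 319 and 351. Without Hba-a1 these sums were 193 and 208 against 168 and 174. Of the markers left, Hemgn had the highest level in control. It was at 6.86 and 6.88 in control and 6.06 and 5.76 in MN, and the other negative marker was Slc4a1 (-0.28 ± 0.13). The sums without single markers were added after the data were seen. The part of fat, blood or any of these cell types in the differences of the plasma cell and BAFF/APRIL genes was not tested.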

How the data were processed

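The deposited scanner files hold linear spot intensity. Background subtraction by Agilent's Feature Extraction software, version 10.5.1.1 per the file headers, had put surrogate values in place of 6.91% to 20.0% of non-control spots. The series' deposited value table holds log2 values; over 55681 probes it matched the scaled scanner values centred on the control mean, with replicates 1 and 2 exchanged in both groups. Its column medians are 0.03 and -0.03 for control and -0.03 and -0.04 for MN. The right order could not be settled; it leaves the group means as they are, and the table served as an alternative.

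Non-uniform and outlier spots (79 to 186 per array) were left out, spots of a probe were averaged, and values were log2 signal minus each array's 75th percentile. A probe needed both arrays of a group well above background; a gene took its probe with the highest mean. Genes were named through RefSeq accessions (28026 probes), then symbols and synonyms, and antibody constant regions (12 probes) from the files' descriptions, a step added after the files were seen. MN was compared with control by a two-sided moderated test in limma (lmFit, eBayes; version 3.58.1, R 4.3.3), with Benjamini-Hochberg adjustment over 25285 genes (residual df 2, prior df 1.99). The fit was checked on simulated data. The 352-fold value of Ighg1 sets the MN mean against a mean over the control arrays. On each control array, that mean takes the lowest well-measured signal or the probe's own, whichever is higher.

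The slides, read from the file headers, coincide with the replicate numbers. Arrays of the same number deviated together from their groups (correlation 0.63 over genes), so a block for the slide, or replicate number, was fitted as an alternative; others changed the background correction, scaling, filter, probe rule, variance model and threshold, or left out 1 array.

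The members and lists were chosen with earlier results of these data known. Named from each list were up to 4 genes with the largest absolute difference among those well above background on the 4 arrays, and Tnfrsf13b, Xbp1, Jchain, Igkc, Ighg1, Derl1, Derl2 and Pax5; a further gene of the rule is not reported here, and others were named for a motif in their promoter, as neighbours or as stated. Promoters are those of RefSeq, GRCm38.p6.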

Additional observations from a re-analysis of the deposited data

How the results depend on the processing

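Under all 14 alternatives 0 of the plasma cell and BAFF/APRIL genes passed the adjusted threshold in limma, and Derl3, Mzb1, Sdc1 and Tnfsf13b kept their sign, with ranges of 1.02 to 1.22, 0.49 to 1.15, -0.53 to -0.29 and 0.13 to 0.35. With the replicate block, which is the slide, 0 genes passed in place of 5, and Mzb1 had an unadjusted p of 0.00251 in place of 0.0779; the block changed no call of a member at the adjusted threshold. The signs of Pou2af1, Tnfrsf13c, Prdm1 and Irf4 turned. Pou2af1 was at 0.056 and Tnfrsf13c at 0.024 with quantile normalization, and Prdm1 was at -0.039 with normexp background correction. With 1 array left out, Pou2af1 ran from -0.27 to 0.21, Prdm1 from -0.25 to 0.40, Tnfrsf13c from -0.66 to 0.38 and Irf4 from -0.71 to 0.036; the cause was not tested. Irf4 and Tnfrsf13c could not be fitted under the filter on all 4 arrays, since they were not well above background on MN array 2.

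The count of all genes higher in MN was 5 in the fit reported and 15 with normexp background correction, 20 with quantile normalization, 11 with the median of detected probes as the scale, 16 with a robust variance trend and 22 at a threshold of 0.1. It was 0 with no filter, 0 with the filter on all 4 arrays and 0 to 0 with each array left out, and the count lower in MN was 0 throughout, against 884 at an unadjusted p under 0.05. The scalings moved the median of all genes from -0.07 to -0.02. With 2 arrays per group, the 95% interval of Tnfsf13b spanned 0 (-0.14 to 0.67), and Tnfrsf17, Tnfrsf13c and Irf4 were limited by signals at or near background.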
